A study of Danio rerio with 9 samples.

Results

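The contacts described here are the short-range chromatin contacts that were called in uninjured caudal fins of adult zebrafish and had no called counterpart at 1 or 4 days post amputation (dpa). A member joins 10 kb bins of the same chromosome and comes from the list of called contacts at 0 dpa. Its bin starts lie at most 200 kb apart, and no called pair at 1 dpa or at 4 dpa has both of its own bin starts within 10 kb of the pair's. There were 4368 such pairs among 24348 called at 0 dpa at that span, a share of 17.9% (95% exact binomial interval 17.5% to 18.4%), and among 74121 called pairs in the 3 lists of the series. The members were chosen by measured values, namely the call at 0 dpa and the lack of a call at both later times, so the number of members and their counts are given as a description with no test.

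The fins came from wild type fish of the outbred Ekkwill strain at about 6 to 8 months of age. Each fin was cut at 50% of its length, and the tissue was taken from fresh clips (0 dpa, the uninjured state) or after 1 or 4 days of regrowth. The 9 samples were pools from 10 fish each, 3 for every time point, and the lists hold 1 value per pair and time point with no value per pool. No spread between pools can therefore be given, and every interval below covers counting error alone and treats pairs as independent, which neighbouring pairs are not. Whole fin tissue was used, so contacts lost from a cell type and fewer cells of that type cannot be told apart.

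HiCAR captures contacts of open chromatin. The transposase Tn5 places an adaptor in accessible DNA of cross-linked nuclei, and the adaptor is ligated to a restriction fragment lying close by in the nucleus, so each sequenced molecule joins an open site to a spatial neighbour. In animal genomes, contacts of this range commonly join enhancers to promoters or promoters to each other, and others mark the borders and the interior of chromatin domains. After amputation, epidermis closes the fin stump, and cells below it lose part of their mature character and form the proliferating blastema. Bone, fibroblasts, vessels and nerves are restored as the fin regrows. The uninjured fin holds these tissues in their mature state. The study sought contacts that appear during regeneration, and the pairs below are those at the opposite end of that comparison. No gene is named, because no gene annotation of the build used for the lists, danRer11, was used here.

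Of the 0 dpa pairs of at most 200 kb, 15452 (63.5%) had a counterpart at both later times, 1538 (6.32%) at 1 dpa alone and 2990 (12.3%) at 4 dpa alone. The remaining 4368 are the members. In the same sense, 1065 of 15530 pairs (6.86%) were called at 1 dpa alone, and 3118 of 21367 pairs (14.6%) at 4 dpa alone. The share called at a single time was thus highest in the list of the uninjured fins. That list was also the longest, with 28421 pairs in all against 18712 at 1 dpa and 26988 at 4 dpa. A pair missing from a list has no value there. The lists hold pairs with a false discovery rate (FDR) under 0.01, a count of at least 12 and a count at least 2 times the expected count, so a contact that was weaker later and one that was gone later look alike.

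The strongest members stood far above their background, and by the rule none had a later counterpart. Strength is the contact count of a pair divided by the count expected under the authors' background model. The 8 members with the highest value, among those with a count of at least 20 and with 1 per cluster, ranged from 6.80 to 12.04, while the median over all members was 2.96. Their counts ran from 22 to 30, against a median of 32 over all members. Their expected counts ran from 1.87 to 4.15, against a median of 11.04, so the high ratios went with small expected counts. The first of them lay on chromosome 25 and joined 3490001–3500000 to 3640001–3650000, 150 kb apart. It had 27 contacts where 2.24 were expected, a ratio of 12.04 (exact Poisson interval 7.93 to 17.5), and no pair was called within 300 kb of it at 1 or 4 dpa. Neither of its bins was in another called pair of at most 200 kb at any time. It stood alone at 0 dpa, and afterwards no pair was called near it.

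The second joined 40220001–40230000 to 40240001–40250000 on chromosome 2, 20 kb apart, with 22 contacts against 1.87 expected, a ratio of 11.8 (7.37 to 17.8). The nearest later pair lay 70 kb away, at 40290001–40300000 and 40310001–40320000, and was called at both later times with ratios of 3.35 and 2.79. The later lists therefore did hold a pair of the same span close by, in other bins. It had a lower ratio but more contacts, 45 at 1 dpa and 50 at 4 dpa. The third, on chromosome 24, joined 33450001–33460000 to 33650001–33660000 at 200 kb with 23 contacts, a ratio of 10.5 (6.65 to 15.7). Between its anchors lay a shorter pair, 33500001–33510000 to 33570001–33580000, that was called at 15.1 at 1 dpa and 13.9 at 4 dpa. At this locus the outer contact lost its call while an inner one stood among strong calls at both later times.

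The fourth, on chromosome 8 between 2700001–2710000 and 2790001–2800000, had 22 contacts and a ratio of 7.91 (4.96 to 11.97), and its nearest later calls lay 150 kb away at 1 dpa and 80 kb away at 4 dpa. The fifth, on chromosome 14 between 18510001–18520000 and 18530001–18540000, had 24 contacts and a ratio of 7.71 (4.94 to 11.5), with its nearest later calls 250 kb away at 1 dpa and 260 kb away at 4 dpa. The last of the 8, on chromosome 12 between 20510001–20520000 and 20540001–20550000, had 26 contacts and a ratio of 6.80 (4.44 to 9.97). In these 3 and in the 3 before them, neither anchor bin was in any called pair of at most 200 kb at 1 or 4 dpa.

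The other 2 of the 8 had an anchor in a called pair of at most 200 kb at a later time. On chromosome 5, 19110001–19120000 and 19310001–19320000 had 30 contacts at 0 dpa, a ratio of 7.24 (4.88 to 10.3). At 1 dpa neither bin was in a called pair of at most 200 kb, and at 4 dpa the right bin was in 1. The nearest pair at 4 dpa joined the left bin to 19340001–19350000, 30 kb beyond the member's right bin and so longer than 200 kb. It had 19 contacts and a ratio of 4.50. On chromosome 9, 8270001–8280000 and 8450001–8460000 had 24 contacts, a ratio of 6.84 (4.38 to 10.2). Its right bin was called at 1 dpa with 8250001–8260000, 20 kb from the member's left bin, with 16 contacts and a ratio of 5.11. Whether this later pair and the one on chromosome 5 were also called at 0 dpa was not examined. The 1 dpa pair on chromosome 9 missed being a counterpart by 1 bin, and with 2 bins allowed between anchors 7 of the 8 remain members.

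**Figure D1:**
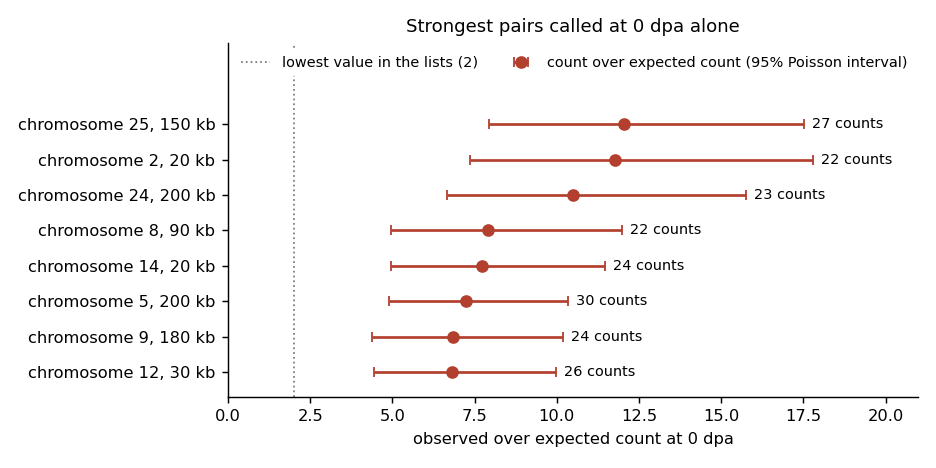
Count over expected count at 0 dpa of the 8 strongest pairs called at 0 dpa alone, named by chromosome and span in kb, with the raw count at the right. Bars are 95% exact Poisson intervals for counting error, with the expected count taken as known. The dotted line is the lowest ratio in the lists. The lower ends of the intervals run from 4.38 to 7.93. The pairs were picked for their high ratios, so their place above the line follows from that choice.

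Highest strength and highest count picked different members. The 5 members with the highest counts were all 20 kb long and had between 77 and 84 contacts, at ratios of 2.39 to 2.99. The highest, on chromosome 3 between 23470001–23480000 and 23490001–23500000, had 84 contacts where 28.7 were expected, a ratio of 2.93 (2.33 to 3.62). The nearest later call lay 70 kb away at both times, with ratios of 2.52 at 1 dpa and 2.34 at 4 dpa. The 5 had expected counts of 26.0 to 32.2, above the median of 13.8 for members of 20 kb, so many contacts gave a modest ratio.

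Most members were short. The median span was 20 kb, the shortest span in the lists, and 2230 members (51.1%) had that span, against 14.4% of the pairs with a counterpart at both later times, whose median span was 70 kb. In all, 3315 members (75.9%) spanned at most 50 kb, against 41.9% of those pairs, and 420 members (9.62%) spanned more than 100 kb. The share of 0 dpa pairs without a later counterpart fell with span in each step of the plot. It was 37.1% at 20 kb (35.8% to 38.3%), 20.4% at 30 kb, 13.9% at 40 kb, 12.5% at 50 kb, 10.4% at 60 to 100 kb and 7.47% at 110 to 200 kb (6.80% to 8.19%). At the limit of the rule there was no step in the share, with 22 of 300 pairs (7.33%) at 200 kb and 25 of 291 (8.59%) at 210 kb, just outside it.

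**Figure D2:**
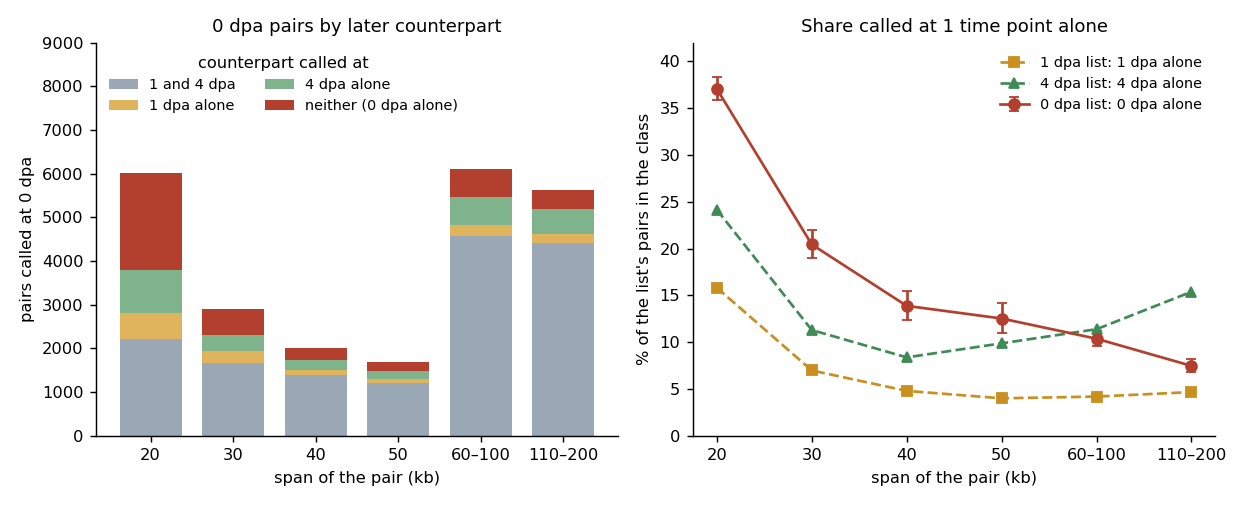
Left, number of 0 dpa pairs of at most 200 kb by span (kb) and by the later lists that hold a counterpart; right, percent of each list's pairs that were called at that time alone, with 95% exact binomial intervals on the 0 dpa series. At 0 dpa the share fell from 37.1% at 20 kb to 7.47% at 110 to 200 kb, while the 4 dpa share was 24.2% at 20 kb, 8.38% at 40 kb and 15.4% at 110 to 200 kb.

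The 3 lists themselves differed most at short spans. At 20 kb, 6017 pairs were called at 0 dpa, 2952 at 1 dpa and 3792 at 4 dpa, so the later lists held 0.491 and 0.630 times as many. At 110 to 200 kb the same ratios were 0.766 and 1.198, and the 4 dpa list was there the longest with 6734 pairs. The pairs called at 1 dpa alone and at 4 dpa alone were also most frequent at 20 kb, where they made up 15.8% and 24.2% of their lists. At 110 to 200 kb they made up 4.67% and 15.4%. A high share at the shortest span was thus seen at every time, and the sets parted at long spans. Pairs over 100 kb made up 9.62% of the members, 18.9% of the pairs called at 1 dpa alone and 33.2% of those called at 4 dpa alone.

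The expected count of the same bins also moved between lists, and most at 4 dpa. Over the 2391 pairs of 20 kb called in identical bins at 0 and 4 dpa, the median contact count was 46 at 0 dpa and 52 at 4 dpa, while the median expected count was 15.1 and 19.1. The median ratio of 4 to 0 dpa was 1.12 for the count and 1.28 for the expected count. At 110 to 200 kb these ratios were 1.08 and 1.17. Against 1 dpa, at 20 kb, the ratios were 0.909 for the count and 0.953 for the expected count. Calls of 20 kb pairs at 4 dpa were thus made against a higher expected count than at 0 dpa. Its part in the absence of later calls was not tested.

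Members were weaker than the pairs that were called throughout. The counts of members ran from 12 to 84 with a median of 32, close to the median of 31 in the pairs with counterparts at both later times. Their expected counts were higher, with a median of 11.04 against 7.31. The ratio of the 2 was accordingly lower, at a median of 2.96 with quartiles of 2.62 and 3.53, against 3.93 with quartiles of 3.14 and 5.17. Pairs with a counterpart at 1 dpa alone or at 4 dpa alone lay between, at 3.09 and 3.23. The highest ratio was 12.04 among members and 155 among pairs called at all times.

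Since expected counts fall with span, the same comparison was made within spans. At 20 kb the median ratio was 2.77 in members and 3.03 in pairs called at all times, with median counts of 38 and 47. At 60 to 100 kb the ratios were 3.57 and 4.07, and at 110 to 200 kb they were 4.38 and 4.92 with counts of 18 and 21. Members had the lower median ratio in every span class. They were not all at the bottom of the later range, as 1542 members (35.3%) had a ratio above that of the median called pair of their span class in both later lists. The same share was not computed over all 0 dpa pairs, so it does not rank members among them. An FDR of at most 0.0001 was reached by 2416 members (55.3%), against 67.8% of the pairs called at all times. Pairs with no called neighbour are in the lists only at that limit, so all of them reach it. Such pairs made up 68.1% of these 2416 members, and they were far rarer among the pairs called at all times. The 55.3% therefore owes much to the limits of the lists.

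The share of pairs without a later counterpart was lowest among the strongest pairs at every span. Over all spans it was 34.2% at a ratio of 2 to 2.5, 30.3% at 2.5 to 3, 18.2% at 3 to 4, 8.93% at 4 to 6 and 2.18% at 6 or more, where 62 of 2844 pairs were members. Among 20 kb pairs it was 39.4% in the weakest class, 44.0% and 36.4% in the next ones, 14.9% at 4 to 6 and 2.78% at 6 or more. Among pairs of 110 to 200 kb it was 10.4% at 3 to 4, 8.62% at 4 to 6 and 2.58% at 6 or more. The spans differed widely among weak pairs and came together among strong ones, where the shares lay between 1.36% and 2.78%.

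**Figure D3:**
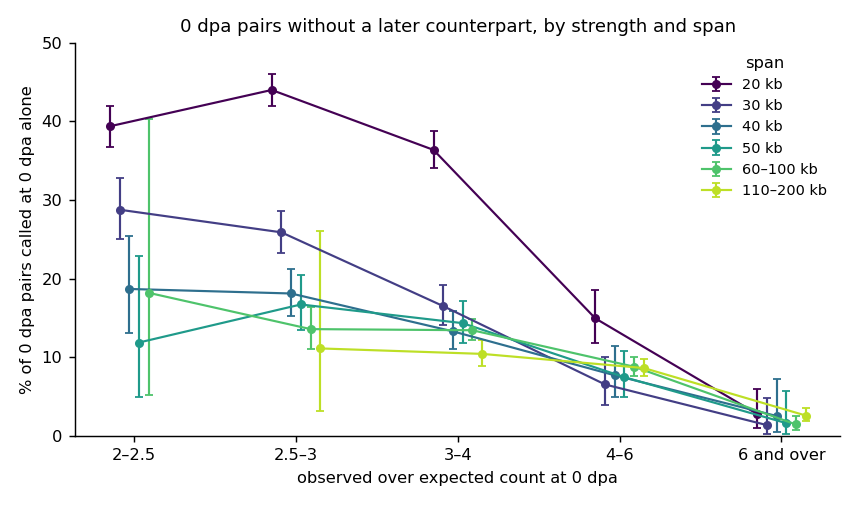
Percent of 0 dpa pairs of at most 200 kb that were called at 0 dpa alone, by count over expected count (horizontal axis) and by span (colour), with 95% exact binomial intervals. Weak pairs of 20 kb reached 44.0%, and at a ratio of 6 or more every span class lay between 1.36% and 2.78%.

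Members also tended to stand alone. The authors grouped neighbouring called pairs into clusters, and 1645 members (37.7%) were singletons with no called neighbour, against 6.75% of the pairs called at all times. The members' share of singletons was 19.6% when counterparts needed identical bins and 68.1% at an FDR of at most 0.0001 at 0 dpa. Only 125 members (2.86%) belonged to clusters of the type the authors call broad, against 28.8%. Of the 0 dpa singletons 44.9% lacked a later counterpart, and this share was 32.6% in clusters of 2 pairs, 14.9% in clusters of 3 or 4, 5.25% in clusters of 5 to 9 and 2.95% in clusters of 20 or more. Among pairs longer than 20 kb the shares were 34.9% for singletons and 2.49% for clusters of 20 or more, so the fall was also seen away from the shortest span. Singletons are in the lists only at an FDR of at most 0.0001, a stricter limit than for pairs with neighbours. A large cluster offers more pairs within 10 kb of a later call, which the rule counts as counterparts.

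Most members lay in clusters made of members alone. Of the 2995 clusters with a member, 2563 consisted of members alone, and these held 3747 members (85.8%). They comprised 1645 singletons, 725 clusters of 2, 147 of 3 and 46 of at least 4 pairs. The other 432 clusters mixed members with pairs that had a later counterpart. They held 621 members (14.2%), of which 67 were the summit of their cluster. The rule favours this split, since a pair with both anchors within 10 kb of a later call cannot be a member. With identical bins required, members numbered 9119 and clusters of members alone 2844.

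The cluster with the most members lay on chromosome 6 between 7950001 and 8040000, an extent of 90 kb. It held 16 pairs at 0 dpa, of which 11 were members with 18 to 49 contacts and ratios of 2.62 to 3.77. The best of them joined 7970001–7980000 to 8010001–8020000 with 47 contacts where 12.5 were expected, a ratio of 3.77 (2.77 to 5.01). The remaining 5 pairs of the cluster, at 2.22 to 3.34, had a later counterpart, and their strengths overlapped those of the members. Inside the 90 kb, 17 pairs were called at 0 dpa, 3 at 1 dpa and 3 at 4 dpa, so the locus was thinned out rather than emptied.

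A cluster on chromosome 23 between 14590001 and 14660000 was made of members alone. Its 8 pairs had 28, 26, 28, 33, 23, 31, 50 and 31 contacts, at ratios of 2.37 to 3.32, and all linked 3 bins on its left to 4 on its right. No pair inside the 70 kb was called at 1 or 4 dpa. The rule bars a later call with both anchors within 10 kb of a member's, and the named clusters were picked for their members. Few or no later calls inside them, here and in the other named clusters, thus largely follow from that choice. Within 200 kb of the cluster, 26 pairs were called in uninjured fins, 9 at 1 dpa and 7 at 4 dpa. The later calls all had their left anchor outside the cluster, and most of them ran across it to an anchor on its right.

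On chromosome 20, between 15450001 and 15560000, 4 bins on the left met 2 on the right in 7 pairs of 60 to 100 kb. Their counts were 15, 21, 20, 24, 24, 24 and 42, and their ratios 3.10 to 4.68, the highest for 15480001–15490000 with 15550001–15560000 (3.37 to 6.33). Of the 14 pairs called inside these 110 kb at 0 dpa, none was left at 1 dpa and 2 were called at 4 dpa. On chromosome 8, between 24170001 and 24230000, 7 pairs of 20 to 40 kb had 34, 17, 27, 22, 26, 35 and 17 contacts at ratios of 2.67 to 4.26. No pair of at most 200 kb with an anchor in these 60 kb was called at 1 or 4 dpa. The later pairs at this locus had their anchors on either side of the interval.

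Next in order, 6 clusters held 6 members each. On chromosome 1 between 20460001 and 20530000, and on chromosome 8 between 18600001 and 18680000, 6 pairs were called at 0 dpa and none at 1 or 4 dpa. As above, this largely follows from how clusters were picked. In the second of these the nearest later call of any member was 230 kb away. On chromosome 3 between 14790001 and 14910000, the best member joined 14800001–14810000 to 14900001–14910000 with 34 contacts and a ratio of 5.83 (4.04 to 8.15), and 8, 1 and 1 pairs were called inside the interval at 0, 1 and 4 dpa. The cluster on chromosome 24 between 14270001 and 14340000 also consisted of members alone, at ratios of 2.08 to 2.80. The remaining clusters were mixed: members were 6 of 9 pairs in the one on chromosome 3 whose members lay between 26150001 and 26220000, and 6 of 23 in the one on chromosome 14 with members between 34810001 and 34920000.

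**Figure D4:**
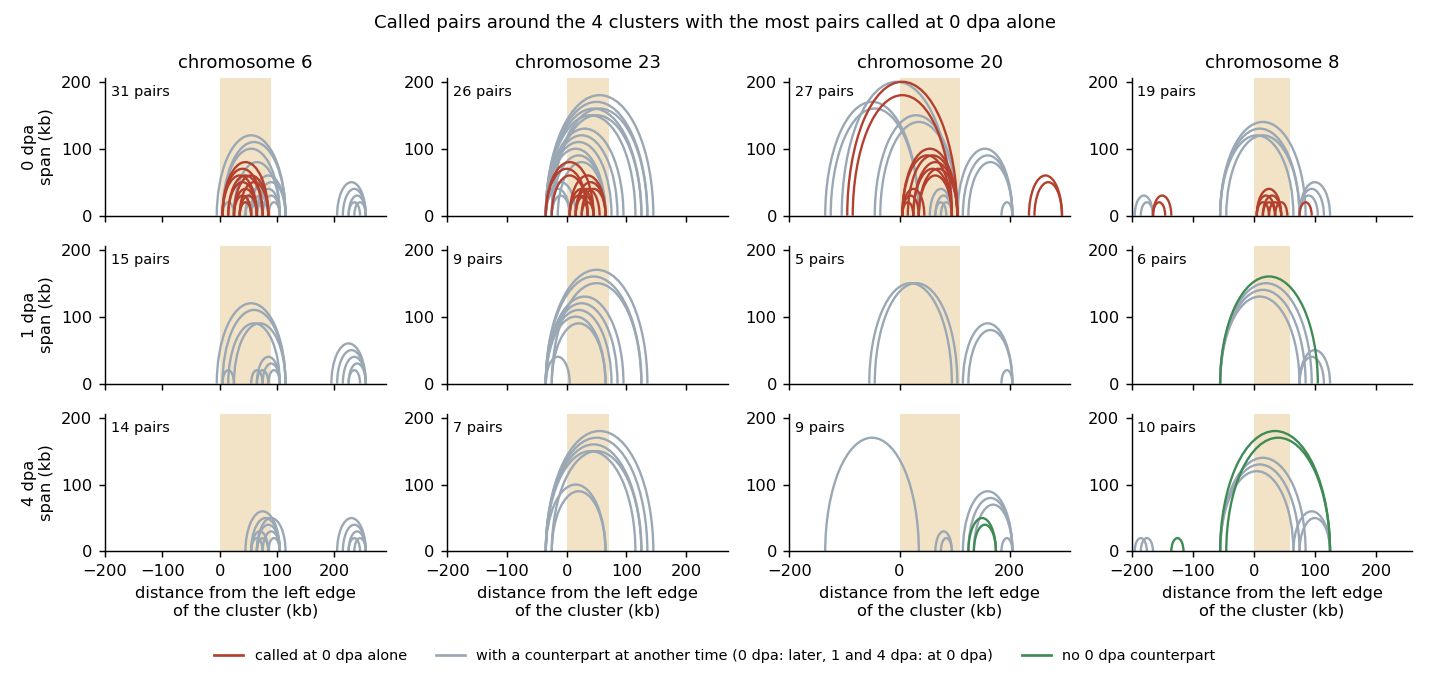
Called pairs of at most 200 kb around the 4 clusters with the most members, drawn as arcs whose height is the span (kb) against the distance from the cluster's left edge (kb), 1 row per time point. Shading marks the cluster; within 200 kb of it, pairs at 0, 1 and 4 dpa numbered 31, 15 and 14 on chromosome 6, 26, 9 and 7 on chromosome 23, 27, 5 and 9 on chromosome 20, and 19, 6 and 10 on chromosome 8.

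A later call was often near. The nearest called pair at 1 or 4 dpa, measured by the larger shift of the 2 anchors, was 20 kb away for 1259 members (28.8%), 30 to 50 kb away for 1343 (30.7%), 60 to 100 kb for 885 (20.3%) and 110 to 200 kb for 572 (13.1%). For 123 members (2.82%) no pair was called within 300 kb. The 1259 members just inside the rule had a median span of 30 kb and a median ratio of 3.001, and 29.2% were singletons. The 4751 pairs just outside it, whose nearest later call was shifted by 1 bin, had a median span of 50 kb and a ratio of 3.20, and 3.01% were singletons. Pairs with an identical later call had a ratio of 3.96. The label of contacts seen only in uninjured fins therefore refers to the exact place of the call, as most members had some later call nearby. Such a later call joins at least 1 other bin and is a different pair. How near later calls lie to places without a member was not computed, so this nearness is not a trait of the members.

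Most bins at the ends of members were in no called short pair later. The 4368 members used 7153 anchor bins, of which 4651 (65.0%) were in no called pair of at most 200 kb at 1 or 4 dpa. Among the 18327 bins used at 0 dpa by other pairs alone, this was 1888 (10.3%). At 0 dpa the median number of pairs of that span per bin was 1 in both kinds of bin, with 60.1% of members' bins and 53.9% of the others in a single pair. In all, 5060 of the members' bins (70.7%) were in no 0 dpa pair of that span other than members. Among the members' bins, 1414 (19.8%) were used at both later times, 736 (10.3%) at 4 dpa alone and 352 (4.92%) at 1 dpa alone. The difference between members' bins and the others largely follows from the rule. Every 0 dpa pair of that span at the other bins had a later counterpart, and no member had one. Counting a neighbouring bin as well, 64.1% of members had an anchor in use later.

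Seen by pair, 1991 members (45.6%) had neither anchor in a called pair of at most 200 kb later, 1532 (35.1%) had 1 and 845 (19.3%) had both. Long members kept an anchor in use more often than short ones. At least 1 anchor was in use later for 41.4% of the 20 kb members, for 52.2% at 30 kb, for 72.5% at 50 kb and for 76.2% at 110 to 200 kb. The corresponding share over all spans was 54.4% for members, 57.9% for pairs called at 1 dpa alone and 52.6% for those called at 4 dpa alone, each read in the other lists. Over all spans these shares were thus close, but the sets differed in span. Pairs of 20 kb made up 51.1% of the members, 43.8% of the pairs called at 1 dpa alone and 29.4% of those called at 4 dpa alone. The later sets were not split by span here, so isolation of anchors cannot be compared at like span.

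Most anchor bins, 5899 of 7153, belonged to 1 member, and 250 belonged to 3 or more. The bin with the most members, 8450001–8460000 on chromosome 9, was in 18 pairs of at most 200 kb at 0 dpa, of which 7 were members with 17 to 54 contacts and ratios of 2.35 to 6.84. It was in 9 such pairs at 1 dpa and 4 at 4 dpa, and with longer spans included in 33, 20 and 12. It had many partners at every time, and fewer of them later. On chromosome 6, 33470001–33480000 was in 6 pairs at 0 dpa, all members, with 25 to 39 contacts and ratios of 2.38 to 3.86, and in none of any span at 1 or 4 dpa. On chromosome 3, 14760001–14770000 was in 8 pairs at 0 dpa, 6 of them members, in 2 at 1 dpa and in 1 at 4 dpa. Here the bin had fewer called contacts at each later time. These bins were picked for pairs without a later counterpart, so fewer later partners follow in part from that choice. The later lists also held fewer pairs of at most 200 kb, 15530 at 1 dpa and 21367 at 4 dpa against 24348 at 0 dpa. A further 10 bins had 5 members each.

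Most later contacts at members' anchors had a counterpart at 0 dpa. At 1 dpa, 3300 called pairs of at most 200 kb used a member's anchor bin, and 281 of them (8.52%) had no 0 dpa counterpart, against 11.3% of all 1 dpa pairs of that span. At 4 dpa it was 611 of 4184 (14.6%), against 18.8%. Of the 1766 members' bins in use at 1 dpa, 253 (14.3%) had such a new pair, and of the 2150 in use at 4 dpa, 520 (24.2%) did. The share per bin was not computed for other bins, so it cannot be read as a trait of members' anchors. The new pairs had median spans of 70 kb at 1 dpa and 80 kb at 4 dpa. Pairs at these anchors with a 0 dpa counterpart had the same medians.

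The retained contacts at these anchors had strengths close to those of retained contacts elsewhere. Among the 2496 pairs called in identical bins at 0 and 1 dpa that used a member's anchor, the median ratio of 1 to 0 dpa strength was 0.934, against 0.946 in the 8555 pairs at other bins. Of them 7.01% were at least 1.5-fold lower, against 5.93% elsewhere and 6.17% of all 11051 such pairs. At 4 dpa the median ratio was 0.887 in 2814 pairs at a member's anchor and 0.892 in 10159 at other bins, and 10.7% were at least 1.5-fold lower, against 9.70% elsewhere and 9.91% of all 12973. The later strengths were slightly lower in both groups. Over all 12973 pairs at 4 dpa the median ratio to 0 dpa was 1.09 for the count and 1.21 for the expected count. The lower strength at 4 dpa thus went with more contacts, not fewer. Over all 11051 pairs at 1 dpa these ratios were 0.907 and 0.960. The differences between the groups are small and have no spread between pools to be read against.

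Members were found on all 25 chromosomes, from 101 to 280 each. Their share of the 0 dpa pairs ran from 11.1% on chromosome 22 (109 of 983, interval 9.19% to 13.2%) to 22.8% on chromosome 14 (176 of 773, 19.9% to 25.9%), with a median of 18.6%. Part of this follows span. When each pair was given the share of its span over the whole genome, chromosome 22 had 0.676 times and chromosome 4 had 0.801 times the number of members its spans gave. Chromosome 18, with 183 of 860 pairs (21.3%), had 1.21 times, the highest ratio. Chromosome 22 had both the lowest share and the lowest ratio. The density of called pairs, which is tied to the rule, was not taken into account in these ratios.

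Members were more frequent where called contacts were sparse. In 1 Mb windows with 1 to 5 pairs at 0 dpa, 31.3% of pairs were members, in windows with 6 to 15 pairs 25.1%, with 16 to 30 pairs 18.5%, with 31 to 50 pairs 14.9% and with more than 50 pairs 10.6%. Relative to the number given by their spans, these were 1.37, 1.24, 0.995, 0.895 and 0.708 times. Since a dense window offers more later pairs that can serve as counterparts, density is not independent of the rule.

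**Figure D5:**
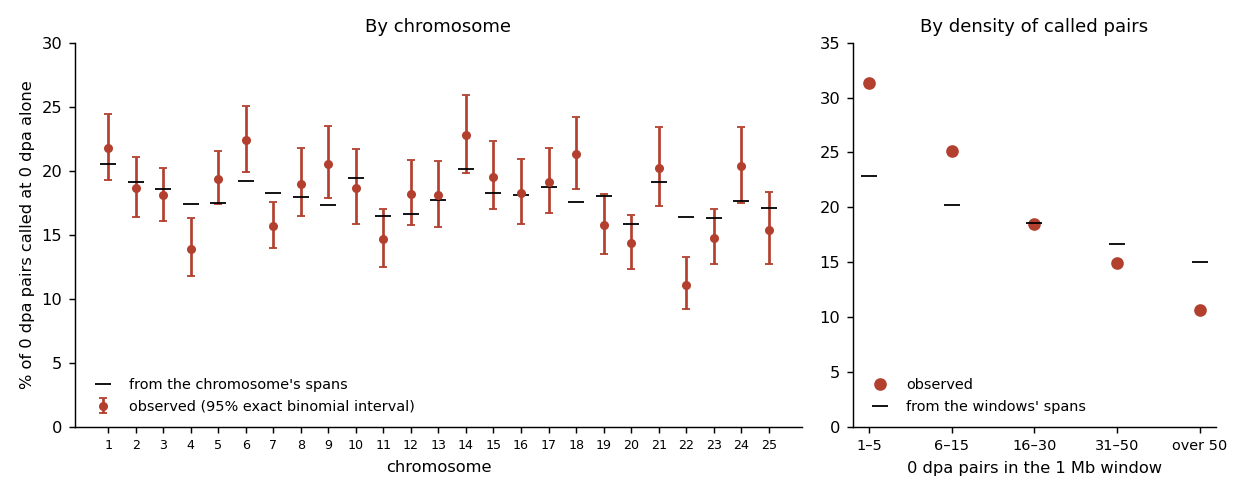
Percent of 0 dpa pairs of at most 200 kb that were called at 0 dpa alone, by chromosome (left, with 95% exact binomial intervals) and by the number of 0 dpa pairs in the pair's 1 Mb window (right); black ticks give the percent obtained when each pair takes the genome-wide share of its span. Chromosome 22 at 11.1% lies below its tick, and the share falls from 31.3% in the sparsest to 10.6% in the densest windows.

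Windows with many members differed in how many calls they held later. The named windows were picked by members, so fewer later calls in them follow in part from that choice. The 1 Mb window with the most members was 40000001–41000000 on chromosome 1, where 19 of 33 pairs (57.6%) were members and 11 and 14 pairs were called at 1 and 4 dpa. Next came 15000001–16000000 on chromosome 20 with 18 of 40 and 13000001–14000000 on chromosome 13 with 18 of 41. At 1 and 4 dpa, 13 and 15 pairs were called in the chromosome 20 window, and 14 and 27 in the chromosome 13 window. The chromosome 20 window holds the cluster of 7 members described above. In 34000001–35000000 on chromosome 12 and 43000001–44000000 on chromosome 8, 17 of 65 pairs each were members, a share of 26.2%, so these windows ranked high through their many pairs. At 1 and 4 dpa, 38 and 55 pairs were called in the chromosome 12 window, and 43 and 36 in the chromosome 8 window. Among the 653 windows with at least 15 pairs, the median share was 15.2%, and 50 windows held no member.

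The highest share, 68.75%, was found on chromosome 19 between 16000001 and 17000000, where 11 of 16 pairs were members, and 12 of the 16 were 20 kb long. On chromosome 1 between 53000001 and 54000000 it was 68.4% (13 of 19 pairs), with only 4 of 20 kb and with 6 pairs called at each later time, none of which was called at that time alone. On chromosome 6 between 7000001 and 8000000 it was 68.2% (15 of 22), with 4 of 20 kb and 5 pairs at each later time, of which 4 at 4 dpa were called at 4 dpa alone, and this window holds the left anchors of the largest cluster. In these latter windows few of the pairs were of the shortest span. The share was 62.5% (10 of 16 pairs) both on chromosome 1 between 27000001 and 28000000, with 6 and 3 pairs at 1 and 4 dpa, and on chromosome 21 between 28000001 and 29000000, with 4 and 3.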

How the data were processed

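HiCAR libraries of 9 fin pools were analysed from 3 deposited lists of called interactions, 1 per time point, assigned by list names that match the sample titles. Per the file headers, each row gives the authors' contact count of a pair of 10 kb bins, an expected count, a false discovery rate (a q-value), and the cluster with its size, type, summit and −log10 p. Per the submitters' processing notes, BWA and danRer11 were used; not given in the sources used here are the BWA version, the caller, the background model and the combining of pools. Depth is unknown: the deposited counts at called pairs sum to 909221, 562191 and 861126 in time order.

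Observed over expected counts, spans between bin starts, counterparts within 1 bin, nearest later calls and anchor use were computed with Python 3.11.15, numpy 2.4.6, pandas 2.3.3 and scipy 1.17.1, and the matching was tested on simulated lists. Pairs were counterparts at any span. Binomial intervals are exact (Clopper-Pearson) and Poisson intervals exact, at 95%, and cover counting error only. No test was made. Members, comparison sets and lists were chosen with earlier results of these data known. Named were the 8 strongest members (count of at least 20, 1 per cluster), and the top 5 by count, clusters by members, anchor bins by members, and 1 Mb windows by members and by share (at least 15 pairs); where ranks tied, the number tied is given. Positions are 1-based in danRer11. Planned gene results were not run, since the gene table used here is of another build.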

Additional observations from a re-analysis of the deposited data

How the results depend on the processing

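The set and its share depended on what counts as a counterpart. Identical bins gave 9119 members, 37.5% of pairs, a median span of 40 kb, and 76.0% of members with an anchor in use later. Anchors within 2 bins gave 12.8% and 39.1%. An FDR of at most 0.0001 on the 0 dpa side alone gave 2416 members, 15.7% and 51.9%, and in all lists 20.03% and 49.1%. A count of at least 20 gave 18.9% and 52.7%, lists of equal length 2697, 17.3% and 51.1%, no singletons 2723, 13.2% and 58.4%, summits alone 2630, 30.2% and 48.9%, and spans of at most 100 kb 21.1% and 52.1%. Chosen after seeing the data, leaving out 20 kb pairs gave 2138, 11.7%, 50 kb and 68.0%, counting an anchor as used when a neighbouring bin was, 64.1%, and counting later pairs of any span, 57.7%. Fewer pairs enter under each stricter limit; beyond that the cause was not tested. The median observed over expected count stayed between 2.84 and 3.19, the share of singletons ran from 19.6% to 68.1%, and with span classes of equal number the shortest class had a share of 31.6%. Of the 5 windows of 1 Mb with the most members 2 lay in the top 2 Mb windows, and 1 of the 5 with the highest share. No paired analysis was possible because the lists hold no values per pool, so leaving out a pool was not run either. Gene results were not run. A pair below the limits of a later list has no value there, and the part of depth in this was not tested.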

Other observations

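Members were less frequent in the outermost part of chromosomes. In the outer 1 Mb, 71 of 679 pairs (10.5%, exact binomial interval 8.26% to 13.0%) were called at 0 dpa alone, 0.691 times the number given by their spans. The share was 17.1% at 1 to 2 Mb from an end, 19.5% at 10 to 20 Mb and 16.1% beyond 20 Mb. Relative to the number given by spans, these were 1.03, 1.07 and 0.876 times, so the ratio was also low far from the ends. Over the whole outer 2 Mb the share was 13.0%, while 68.1% of pairs had a counterpart at both later times. The density of called pairs, which is tied to the rule, was not taken into account here.

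Joined by shared anchor bins, the 4368 members formed 2844 groups. In all, 1997 members (45.7%) shared no bin with another, and 77 groups of at least 5 held 544 members (12.5%). The group with the most members, on chromosome 13 between 13240001 and 13460000, had 18 with 15 to 77 contacts and ratios of 2.14 to 4.21, drawn from 8 clusters. Inside its 220 kb, 30 pairs were called in uninjured fins, 5 at 1 dpa and 9 at 4 dpa. The next, on chromosome 3 between 14750001 and 14970000, had 16 members at ratios of 2.499 to 5.83, with 21, 3 and 2 pairs called inside it. On chromosome 12 between 8620001 and 8860000, 14 members lay among 58 pairs at 0 dpa, and 20 and 38 pairs were called in the same interval at 1 and 4 dpa. These groups were picked by their number of members, so fewer later calls inside them follow in part from that choice.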
